A study of Mus musculus with 14 samples.

Results

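Dpp4 and Actb are the genes of 2 of the proteins that were fused to the peroxidase APEX2 to label RNA in mouse small intestinal organoids (sIOs). Both were chosen by name, as the genes of a fusion bait, and they are 2 of the 55401 genes in the count table. The libraries hold RNA recovered on streptavidin after labelling that biotinylates RNA next to a bait, a step that unlabelled controls lack. The baits were APEX2-V5-DPP4 at the apical membrane, APEX2-V5-GFP and APEX2-V5-ACTB in the cytoplasm, each with 4 libraries (DPP4, GFP and ACTB, replicates 1 to 4), and MITO-V5-APEX2 in mitochondria with 2 libraries (MITO-1 and MITO-1c). All sIOs came from mice of the C57BL/6J background and expressed their bait stably from a lentivirus that also carries ZsGreen1, so every group shares the vector. The paper used male and female mice of a stated age range, and the labels assign neither sex nor age to a library. For the mitochondrial bait the paper compares samples with and without hydrogen peroxide, which its unlabelled controls did not receive. The labels do not say which of the 2 MITO libraries received it, so 1 may hold unlabelled RNA. Both are therefore given singly. An sIO holds several epithelial cell types, and in such a bulk sample fewer cells of a type and less RNA per cell cannot be told apart. The sources used here do not say whether replicates are separate cultures, and p-values therefore cover only the variation among these libraries, part of which may be technical.

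Dipeptidyl peptidase 4 is a membrane-bound serine peptidase that removes N-terminal dipeptides, mostly after proline, and in the small intestine it sits in the brush border of enterocytes. It takes part in the last steps of peptide digestion and inactivates the incretin hormones GLP-1 and GIP. Beta-actin is a cytoplasmic actin that polymerizes into the filaments of the cell cortex and of the microvilli, and its mRNA is present in nearly every cell. Enterocytes arise from dividing cells of the crypt and switch on brush border enzymes as they mature, so the amount of such mRNAs in an organoid culture is known to vary with its cell composition.

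Depth was 9442594 to 36492010 counts per library, and DPP4-4 and GFP-4 held less than 50% of the median total of the 12 DPP4, GFP and ACTB libraries. GFP-4 also stood apart in genes of the sex chromosomes, in a study that used male and female mice. Xist, the RNA of the inactive X chromosome, was at 8.20 normalized CPM there and at 216 to 839 in the other 13 libraries. The Y-linked gene Ddx3y was at 40.3 in GFP-4 and at 2.55 or less elsewhere. Enterocyte state was described by an enterocyte score, with neither Dpp4 nor Actb in it. It is the mean of centred log2 CPM over 33 enterocyte genes that encode no apical protein. As the RNA was recovered by way of a bait, cell content and capture cannot be told apart in the score. The paper images the mRNAs of Apob and Pck1, both in the score, as apical. The score was 4.10, 1.05, 0.90 and -2.63 in DPP4-1 to DPP4-4, -2.80, 1.61, 2.83 and 0.20 in GFP-1 to GFP-4, and -1.02, 3.24, -2.54 and -4.94 in ACTB-1 to ACTB-4. Libraries with a low score thus occurred under each bait. By score DPP4-4, GFP-1 and ACTB-2 each lay apart from the other 3 libraries of their bait, and none passed the outlier check described at the end. Counts per gene do not show which bait a library carried, and whether each library carried the bait of its label was not tested. Values are given with and without ACTB-2 because its Dpp4 differed from that of the other 3 ACTB libraries. Normalized CPM are CPM of a library total scaled by the trimmed mean of M values (TMM) over the 14 libraries.

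Dpp4 (ENSMUSG00000035000.8) lies on the minus strand of chr2:62330073-62412231 in GRCm38, with 6 annotated transcripts and 6319 bases of exons. Actb (ENSMUSG00000029580.14) lies on the minus strand of chr5:142903115-142906754, with 9 transcripts and 2679 bases of exons. The deposited counts are per gene and do not separate a transcript of the chromosome from one of a lentiviral construct. The sequences of the constructs were not analysed here. In the longest Dpp4 transcript, 0% of the stretches of 31 bases also occurred in another annotated gene, against 35.3% for Actb, most of them in Lrrc58 (22.7%) and the pseudogene Gm15725 (14.7%). Reads with several places in the genome are dropped in the default counting, so the level of Actb is uncertain.

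Dpp4 is set beside the 250 bases before its start and before those of Sis and Lct, the sucrase-isomaltase and lactase genes, because Dpp4 parted from both of these enterocyte genes in DPP4-4 and GFP-1. The sequences are from RefSeq, build GRCm38.p6, all 3 on the minus strand and read 5′ to 3′, at chr2:62412232-62412481 for Dpp4, chr3:72967864-72968113 for Sis and chr1:128328319-128328568 for Lct. Capitals mark GTTAAT (part of the site of HNF1), TTTAT (the core bound by CDX factors) and CAAAGT (a core bound by HNF4), each searched on both strands. Where 2 matches overlap or touch, the capitals run together.
Dpp4: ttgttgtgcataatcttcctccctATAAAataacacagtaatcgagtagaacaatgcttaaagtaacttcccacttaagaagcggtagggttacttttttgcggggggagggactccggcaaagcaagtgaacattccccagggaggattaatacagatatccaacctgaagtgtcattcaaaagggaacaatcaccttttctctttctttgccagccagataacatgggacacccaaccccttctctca
Sis: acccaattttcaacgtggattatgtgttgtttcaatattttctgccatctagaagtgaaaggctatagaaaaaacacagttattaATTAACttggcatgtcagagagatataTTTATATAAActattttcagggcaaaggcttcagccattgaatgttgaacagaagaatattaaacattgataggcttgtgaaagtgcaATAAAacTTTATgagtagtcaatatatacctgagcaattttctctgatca
Lct: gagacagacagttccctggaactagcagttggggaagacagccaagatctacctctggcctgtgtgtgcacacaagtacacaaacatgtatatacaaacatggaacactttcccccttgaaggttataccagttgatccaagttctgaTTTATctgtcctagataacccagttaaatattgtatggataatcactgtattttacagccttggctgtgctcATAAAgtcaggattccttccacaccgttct
The Dpp4 window held 1 match, ATAAA at 226 bases before the start, which is TTTAT on the other strand. The Sis window held 4 matches to TTTAT and 1 to GTTAAT, and the Lct window held 2 matches to TTTAT. Of 32851 mouse promoter windows of this length, 37.3% held TTTAT, 6.43% held GTTAAT and 12.55% held CAAAGT. A match is a description of letters and not a binding site. Only exact letters were searched, so a window without a match may still hold a site.

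In the libraries of its own bait, Dpp4 was at 239.6, 115.9, 69.9 and 55.7 normalized CPM (DPP4-1 to DPP4-4). In the GFP libraries it was at 36.8, 106.4, 98.1 and 45.9. In the ACTB libraries it was at 0.287, 153.0, 0.362 and 0.336, from 13, 4287, 12 and 12 counts. The GFP values overlapped the DPP4 values, 3 of the 4 ACTB libraries held almost no Dpp4, and ACTB-2 was second only to DPP4-1 among the 14 libraries. Counting error was small beside these gaps. It put ACTB-1 between 0.153 and 0.490, ACTB-3 between 0.187 and 0.633 and ACTB-4 between 0.173 and 0.586 normalized CPM (exact Poisson intervals at 95%, which cover counting error only). The 2 MITO libraries lay between, at 9.89 in MITO-1 and 6.40 in MITO-1c.

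**Figure D1:**
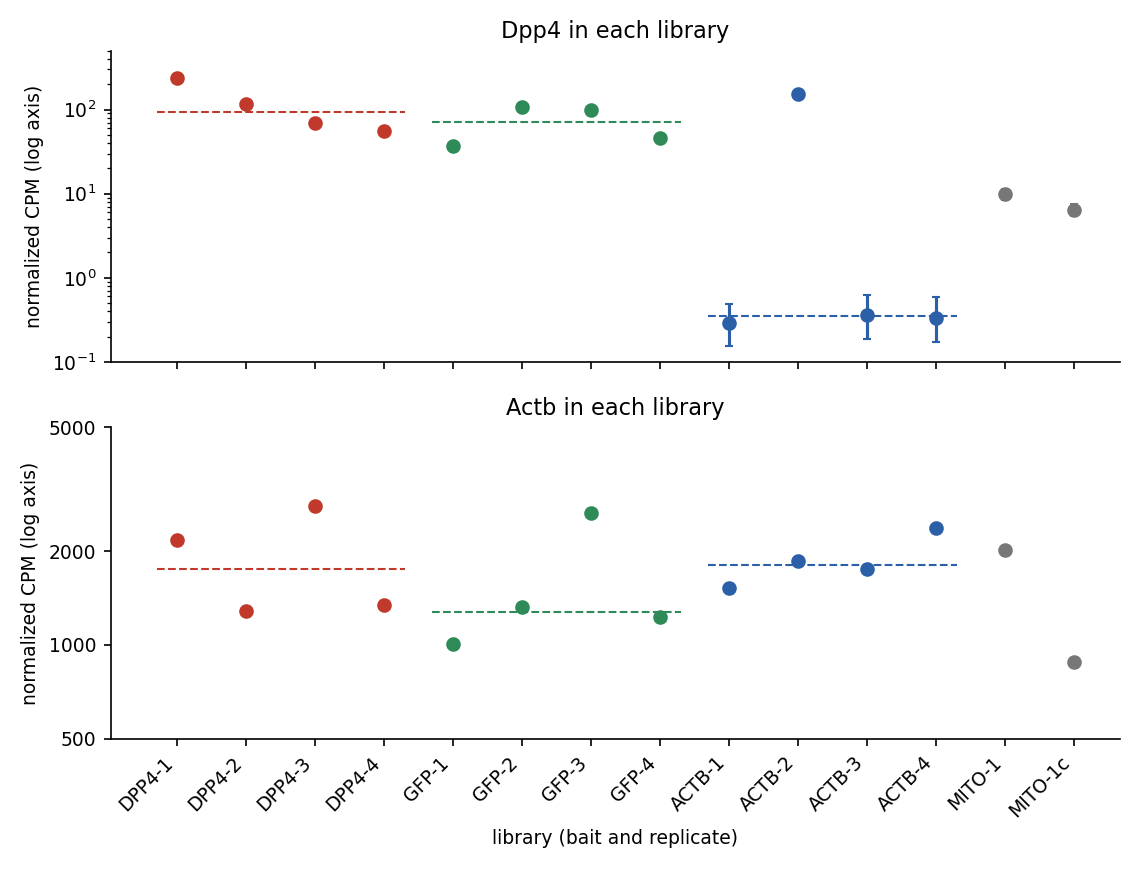
Dpp4 (top) and Actb (bottom) in each of the 14 libraries, as normalized CPM on log axes, coloured by bait. Points carry exact Poisson intervals of the counts, many smaller than the point, and dashed lines are the medians of 4 libraries; ACTB-1, ACTB-3 and ACTB-4 sit between 0.287 and 0.362 for Dpp4, while Actb stays between 1008 and 2790 in the DPP4, GFP and ACTB libraries.

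The first question was whether the gene of a bait is higher where that bait was used. Dpp4 had a mean of 120.3 ± 83.6 normalized CPM in DPP4 (SD, n = 4) and 71.8 ± 35.5 in GFP (SD, n = 4). The log2 difference was 0.70 (SE 0.588), with an adjusted p of 1 from edgeR's quasi-likelihood test with Benjamini-Hochberg adjustment. In the exact permutation test of log2 CPM, two-sided, p was 0.3714 with 4 libraries against 4. Dpp4 was not called, and neither was any gene in this comparison (0%). Of the 26136 genes tested, 1534 had an unadjusted p under 0.05, and 48 were called by DESeq2. Without GFP-4 the log2 difference was 0.51 (SE 0.67). Leaving out each library in turn gave 0.10 to 0.95, with no call.

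Against ACTB the log2 difference of Dpp4 was 1.64 (SE 2.15), with an adjusted p of 1 from edgeR, and 0% of genes were called. Of 27451 genes, 1693 had an unadjusted p under 0.05, and 142 were called by DESeq2, Dpp4 not among them. The exact permutation test, two-sided, gave p = 0.1143 (n = 4 and 4), where the smallest p it allows is 0.0286. ACTB-2 decided the edgeR value. It is singled out because of its own Dpp4 level, so p-values of Dpp4 without ACTB-2, here and below, describe those fits and are no test. Without ACTB-2 the log2 difference was 8.51 (SE 0.927), and Dpp4 was called with an adjusted p of 3.62e-06 from edgeR, 1 of 56 genes called in that fit (0.205% of 27304). Leaving out any other single library gave 1.07 to 1.88 and no call. Against both other baits together, Dpp4 had a log2 difference of 1.14 (SE 1.47, adjusted p of 1 from edgeR), and 0% of 28765 genes were called, with 1789 at an unadjusted p under 0.05 and 36 called by DESeq2. Without ACTB-2 this became 4.56 (SE 0.513, adjusted p = 8.82e-05 from edgeR), where 0.014% of genes were called.

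The low level in 3 ACTB libraries set them apart from GFP too. Between ACTB and GFP the log2 difference of Dpp4 was -0.88 (SE 2.07, adjusted p of 1 from edgeR). Without ACTB-2 it was -7.74 (SE 0.793, adjusted p = 0.00137 from edgeR), and 0.0381% of 26227 genes were called there, 1 higher and 9 lower. These comparisons share the ACTB libraries and are not independent of each other. With the enterocyte score as a covariate and without ACTB-2, a fit chosen after seeing the data, Dpp4 differed by 7.26 between DPP4 and ACTB (SE 0.972, adjusted p = 8.34e-08 from edgeR, 0.209% of genes called) and by -6.895 between ACTB and GFP (SE 0.796, adjusted p = 0.00801, 0.0153% of genes called). With the score as a covariate and ACTB-2 kept, Dpp4 differed by 3.68 between DPP4 and ACTB (SE 1.55, adjusted p = 0.883 from edgeR) and was not called.

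Set against Actb in the same library, Dpp4 does not depend on how libraries are scaled. Dpp4 had 110.5, 90.6, 25.05 and 41.4 counts per 1000 Actb counts in DPP4-1 to DPP4-4. In the GFP libraries the ratio was 36.5, 80.3, 37.1 and 37.5. In the ACTB libraries it was 0.189, 82.2, 0.206 and 0.142, and in MITO-1 and MITO-1c 4.90 and 7.285. The ratio in ACTB-2 lay among those of DPP4 and GFP, and the other 3 ACTB libraries lay below every other library. The mean log2 ratio was -4.14 in DPP4 and -10.21 in ACTB, a difference of 6.07 (exact permutation test, two-sided, p = 0.0857, n = 4 and 4). Without ACTB-2 it was 8.27 (exact permutation test, two-sided, p = 0.0571, n = 4 and 3). That is the smallest p this test allows with 4 and 3 libraries.

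Actb showed no such gap. It was at 1519, 1863, 1755 and 2367 normalized CPM in the libraries of its own bait (ACTB-1 to ACTB-4). In DPP4 it was at 2169, 1280, 2790 and 1346, and in GFP at 1008, 1326, 2644 and 1225. The 3 groups overlapped, with the highest values in DPP4-3 and GFP-3. The mean was 1876 ± 357.5 in ACTB (SD, n = 4), 1896 ± 720.1 in DPP4 (SD, n = 4) and 1551 ± 740.8 in GFP (SD, n = 4). Against GFP the log2 difference was 0.29 (SE 0.396, adjusted p of 1 from edgeR, 0% of 26470 genes called, 1486 at an unadjusted p under 0.05 and 73 called by DESeq2), and the exact permutation test, two-sided, gave p = 0.3143 with n = 4 and 4. Against DPP4 the same exact test gave p = 0.9143, for a difference of 0.057 in mean log2 CPM. The edgeR log2 difference was -0.02 (SE 0.624, adjusted p of 1 from edgeR), and its sign turned in 9 of 17 alternative fits. Against both other baits it was 0.18 (SE 0.406, adjusted p of 1 from edgeR, 0% of genes called, 2005 at an unadjusted p under 0.05 and 109 called by DESeq2). Leaving out each library in turn gave 0.12 to 0.70 against GFP and 0.05 to 0.38 against both baits, with no call. Per kilobase of exon, the median level of Actb was 675.2, 656.0 and 476.1 normalized CPM in ACTB, DPP4 and GFP, and that of Dpp4 was 0.0552, 14.7 and 11.4.

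**Figure D2:**
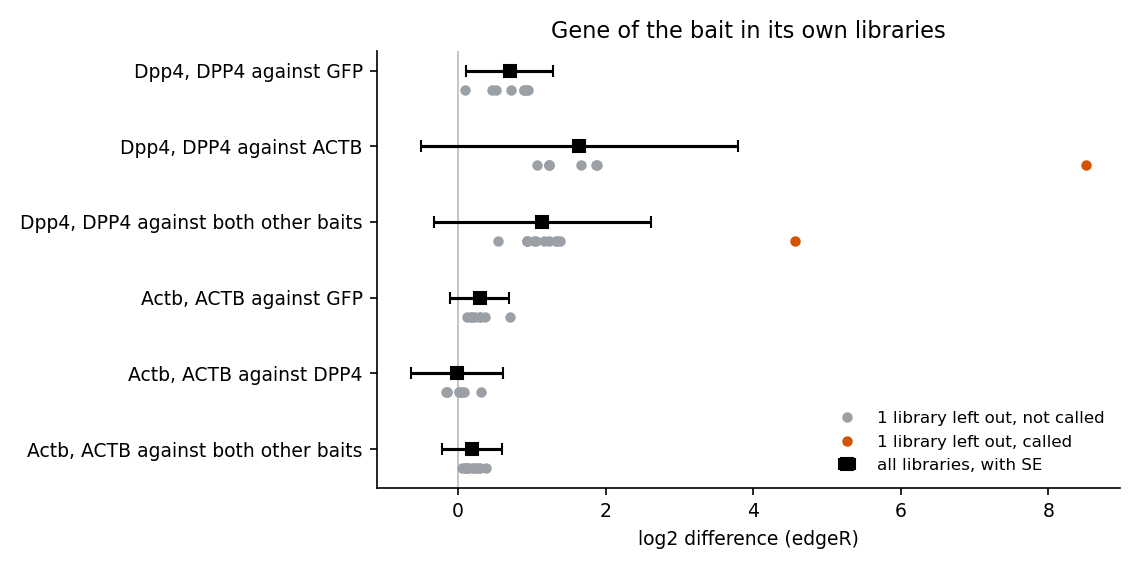
The gene of each bait in that bait's libraries against the other baits, as log2 difference from edgeR, with squares and SE bars for all libraries and small points for fits with 1 library left out. All 6 squares lie between -0.02 and 1.64, and the only called points are the fits of Dpp4 without ACTB-2, at 8.51 and 4.56. ACTB-2 was singled out for its own Dpp4 level.

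The second question was how the 2 genes follow enterocyte state. The 4 DPP4 libraries had the same order by Dpp4 as by the enterocyte score, from DPP4-1 down to DPP4-4. Among the GFP libraries, the lowest Dpp4 was in GFP-1, which also had the lowest score, and the highest was in GFP-2, which had the second highest. In ACTB the 1 library with much Dpp4 was also the 1 with a score above 0. Over the 12 libraries Pearson's r was 0.733 (permutation p = 0.00684, adjusted p = 0.0205 over 6 relations) and Spearman's rho was 0.86 (permutation p = 0.0007, adjusted p = 0.0042). Without ACTB-4 and DPP4-1, the libraries farthest from the median score, r was 0.578 (permutation p = 0.0859) and rho 0.806 (permutation p = 0.00689), so Pearson's r no longer passed while the rank relation did. In the 8 DPP4 and GFP libraries alone, chosen after seeing the data, r was 0.872 (exact permutation p = 0.0034).

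Within baits, Dpp4 had a slope of 0.73 log2 units per unit of enterocyte score (SE 0.219, adjusted p = 0.107 from edgeR), and it was not called. Of 28765 genes, 4.37% were called on this slope, 680 higher with the score (2.36%) and 577 lower (2.01%). DESeq2 called the slope of Dpp4 (0.73, adjusted p = 0.000939), and so did edgeR after its own filter on low counts (0.73, adjusted p = 0.0395). Without ACTB-2 the slope was 0.26 (SE 0.0983, adjusted p = 0.217 from edgeR), the lowest of the 12 fits that leave out 1 library, and without all 4 ACTB libraries, a fit added after seeing the data, it was 0.30 (SE 0.11, adjusted p = 0.19). Much of the slope over 12 libraries therefore rests on the ACTB libraries. In the DPP4 and GFP libraries Dpp4 ranged from 36.8 to 239.6 normalized CPM, and Sis from 0.0579 to 6740.

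**Figure D3:**
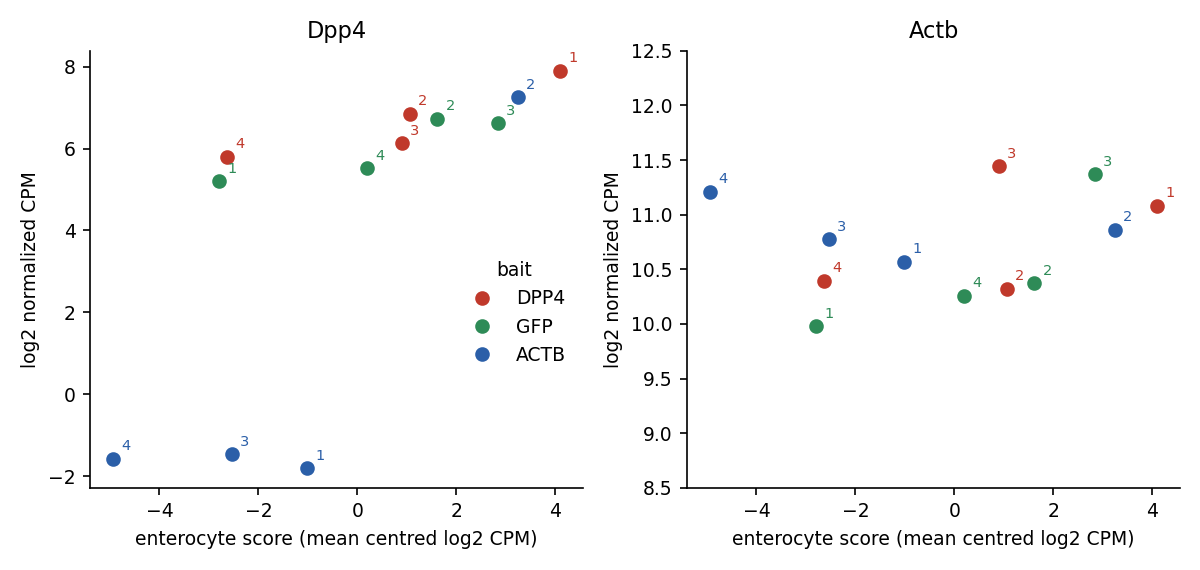
Log2 normalized CPM of Dpp4 (left) and Actb (right) against the enterocyte score in the 12 DPP4, GFP and ACTB libraries, with the replicate number beside each point. DPP4-4 and GFP-1, at scores of -2.63 and -2.80, keep 55.7 and 36.8 normalized CPM of Dpp4, while ACTB-1 at -1.02 and ACTB-3 at -2.54 hold 0.287 and 0.362.

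On the mean of 15 brush border peptidases and disaccharidases, the 5 libraries DPP4-4, GFP-1, ACTB-1, ACTB-3 and ACTB-4 formed a separate low group, so no pooled correlation with that mean is given. In the 7 other libraries Dpp4 followed it with r = 0.922 (exact permutation p = 0.00556, adjusted p = 0.0205 over 6 relations) and rho = 0.929 (exact permutation p = 0.00675). Inside the low group Dpp4 took 2 levels. It was at 55.7 in DPP4-4 and 36.8 in GFP-1, and at 0.287 to 0.362 in the 3 ACTB libraries. Sis was at 0.117 in DPP4-4, 0.0579 in GFP-1 and 28.1, 10.5 and 0.0839 in ACTB-1, ACTB-3 and ACTB-4. Lct was at 0 in DPP4-4, 0.116 in GFP-1 and 0.0882, 0.966 and 1.15 in those ACTB libraries. Sis was thus higher in ACTB-1 and ACTB-3 than in DPP4-4 and GFP-1, the reverse of Dpp4. Alpi, the intestinal alkaline phosphatase gene, was at 27.8 in DPP4-4, 33.1 in GFP-1 and 462.8, 12.7 and 0.364 in the same ACTB libraries. The split of Dpp4 was not particular to it, as the peptidase genes Ace and Anpep had the same direction. Ace was at 12.8 in DPP4-4, 13.0 in GFP-1 and 0.0441, 1.24 and 0.0839 in those ACTB libraries. Anpep was at 206.0, 157.5, 13.2, 91.2 and 29.7 in the same order of libraries. Mep1b was mixed, at 2.11, 0.145, 10.2, 0.513 and 0.0280. These 5 libraries were grouped by their values, so no test is given between them.

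Most other brush border enzymes had a steeper slope than Dpp4. Of the 16 peptidases and disaccharidases, 11 had a larger fitted slope and 5 a smaller one, and 10 were called higher with the score. Over all genes, 2.36% were called higher and 2.01% lower. Sis had a slope of 1.92 (SE 0.332, adjusted p = 0.0122 from edgeR, and 0.0549 without ACTB-2), the metallopeptidase gene Mep1b one of 1.18 (SE 0.136, adjusted p = 4.28e-06), and Mgam, which encodes maltase-glucoamylase, one of 1.10 (SE 0.128, adjusted p = 5.22e-06). The median slope of the list was 1.12, beside -0.10 over all genes tested. Among the peptidases below Dpp4 were Ace at 0.63 (SE 0.317, adjusted p = 0.333) and Anpep, the aminopeptidase N gene, at 0.31 (SE 0.0971, adjusted p = 0.0755). Of the enterocyte genes that make up the score, 31 of 33 were called, as the score was built from them, with Adh6a, Rbp2 and Apoc3 at the smallest p. Among 16 apical nutrient transporters 12 were called higher, led by the glucose transporter gene Slc5a1 (1.615), Slc7a9 (1.16) and Amn (1.42). Of 14 genes of the microvillus actin core 8 were called higher, with Cdhr5 at 0.95, Ush1c at 1.11 and Mall at 0.58, and of 19 crypt stem and proliferation genes 3 were called lower, Ascl2 (-1.48), Mcm2 (-0.44) and Mcm6 (-0.40). The slopes of these lists were compared with that of Dpp4 by value only, with no test of the difference.

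**Figure D4:**
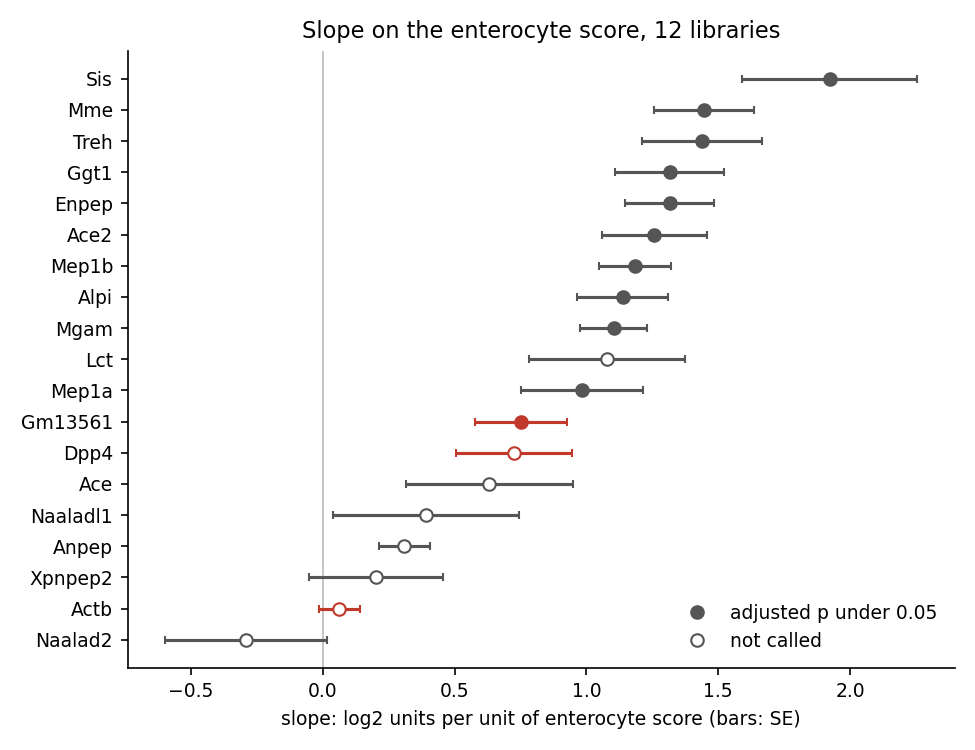
Slope of log2 expression on the enterocyte score for 16 brush border peptidases and disaccharidases (grey) and for Dpp4, its antisense gene Gm13561 and Actb (red), from edgeR fits over 12 libraries with bait as a term. Bars are SE and filled points have an adjusted p under 0.05; Dpp4 at 0.73 is open, between Gm13561 at 0.75 and Ace at 0.63, and Actb lies at 0.06.

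Actb had a slope of 0.06 (SE 0.077, adjusted p = 0.708 from edgeR), between 0.02 and 0.16 in the 22 alternative fits and called in none of them. Its correlation with the score was r = 0.289 (permutation p = 0.359, adjusted p = 0.451 over 6 relations) and rho = 0.343 (permutation p = 0.278), and r was -0.005 with library totals in place of TMM. Without ACTB-4 and DPP4-1 r was 0.507 (permutation p = 0.137), and in the 8 DPP4 and GFP libraries it was 0.713 (exact permutation p = 0.0572), with a rho of 0.714 (exact permutation p = 0.0576). With the mean of 19 crypt stem and proliferation genes, Actb had r = -0.356 (permutation p = 0.259) and rho = -0.601 (permutation p = 0.0424, adjusted p = 0.0848), and Dpp4 had r = -0.287 (permutation p = 0.376). Without GFP-2 and DPP4-1, the libraries farthest from the median of that mean, r was -0.684 for Actb (permutation p = 0.0312) and 0.054 for Dpp4 (permutation p = 0.875). In the 8 DPP4 and GFP libraries it was -0.466 for Actb (exact permutation p = 0.257) and -0.737 for Dpp4 (exact permutation p = 0.0382), and with library totals over 12 libraries -0.076 for Actb and -0.253 for Dpp4. The relation of either gene to the crypt mean thus depended on the libraries, and for Actb also on the scaling.

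Actb was among the least variable genes of these libraries. The SD of its log2 CPM over the 12 libraries was 0.497, and 6.57% of 9714 genes had a smaller SD when genes averaging under 10 CPM were left out. The median SD of these genes was 0.919, and that of Dpp4 was 3.58, larger than in 97.4% of them. Of 16 other genes in common use as references, 3 varied less than Actb and 13 varied more. The 3 were Ywhaz (0.284), Tbp (0.446) and Polr2a (0.484), which encode a 14-3-3 protein, the TATA-binding protein and the largest subunit of RNA polymerase II. Sdha and Rplp0 followed at 0.517 and 0.604, then Gusb, Hprt and Tfrc at 0.724 to 0.86. Eef1a1, Ppia, Gapdh and Pgk1 were at 1.03 to 1.30, Tubb5 at 1.515 and B2m at 1.94. Gapdh, the glycolytic reference, ranged from 232 to 4467 normalized CPM over libraries in which Actb ranged from 1008 to 2790. Of these references only Tubb5 was called on the slope (-0.40, SE 0.105, adjusted p = 0.0257 from edgeR), and 0 of 16 were called in any comparison of baits. Over all genes, 4.37% were called on the slope and 0% between baits.

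The 7 genes most like Dpp4 over the 12 libraries, by Pearson's r of log2 CPM among 9714 genes, were led by Gm13561 at r = 0.989. This antisense gene lies on the plus strand of chr2:62357071-62470913 and shares 232 exonic bases with Dpp4, 3.7% of Dpp4's exons and 12.7% of its own. It was at 73.2, 61.7, 56.1 and 13.25 normalized CPM in DPP4-1 to DPP4-4. In GFP it was at 18.0, 62.4, 49.2 and 28.6, and in ACTB at 0.220, 80.3, 0.151 and 0.308. Gm13561 was thus low in the same 3 ACTB libraries. Its counts were 23.8% to 91.7% of those of Dpp4, both in libraries with at most 475 Dpp4 counts. The Nextera XT kit does not mark the strand, so where exons of the 2 genes overlap their reads cannot be told apart. Whether HTSeq counted by strand is not given in the sources used here, and with strand counting on such a kit a read of Dpp4 could be counted at Gm13561 in that overlap, or the reverse. Without ACTB-2 Gm13561 differed by 7.78 on the log2 scale between DPP4 and ACTB (SE 0.964, adjusted p = 2.42e-05 from edgeR), and its slope on the enterocyte score was 0.75 (SE 0.175, adjusted p = 0.0224). Without ACTB-2 that slope was 0.26 (adjusted p = 0.409) and was not called.

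The other 6 were Slc16a10 (r = 0.972), which encodes an aromatic amino acid transporter, Fam234b (0.965), the ubiquitin ligase gene Rnf152 (0.947), the sorting nexin gene Snx20 (0.945), Maob (0.945), which encodes monoamine oxidase B, and the semaphorin gene Sema4g (0.941). Slc16a10 was at 18.6 to 100.7 normalized CPM in the DPP4 and GFP libraries, at 154.7 in ACTB-2 and at 0.419, 0.966 and 0.391 in ACTB-1, ACTB-3 and ACTB-4. All but Sema4g were under 1 normalized CPM in those 3 libraries, and Sema4g was at 7.34, 2.41 and 4.73. None of these 6 lies on chromosome 2. The likeness was measured over libraries that include those 3, in which Dpp4 was lowest.

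**Figure D5:**
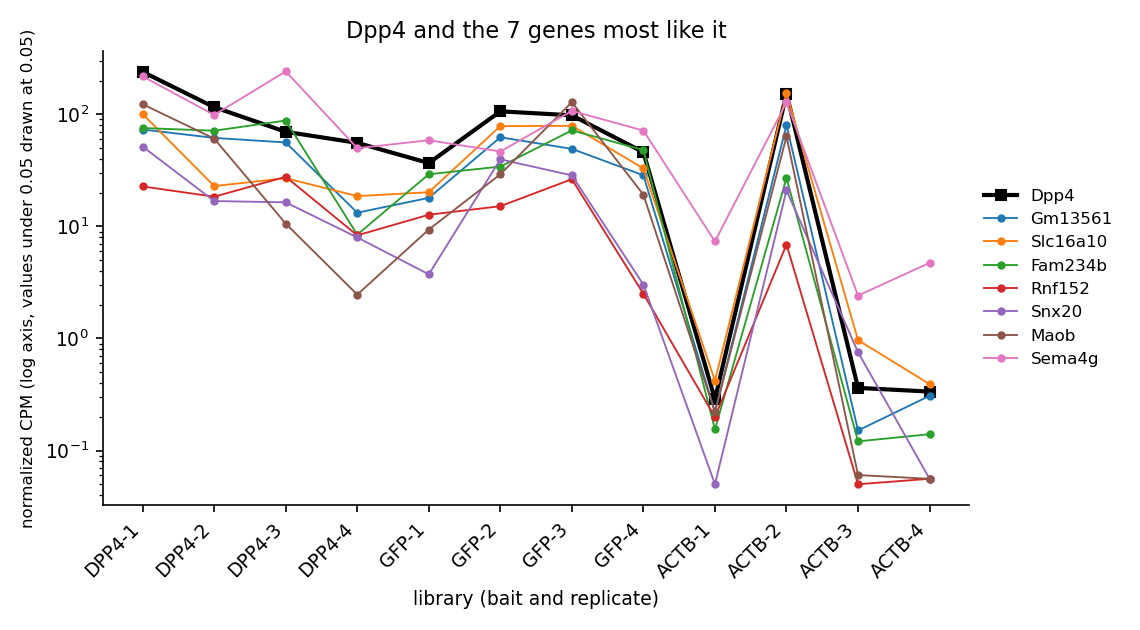
Normalized CPM (log axis, values under 0.05 drawn at 0.05) of Dpp4 and of the 7 genes with the highest Pearson's r with it, in the 12 DPP4, GFP and ACTB libraries. All 8 lines drop in ACTB-1, ACTB-3 and ACTB-4 and return in ACTB-2, and r runs from 0.941 to 0.989.

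The genes most like Actb were the antisense gene A730081D07Rik (r = 0.891) and Gcnt2 (0.886), an N-acetylglucosaminyltransferase gene, both on chromosome 13. Plin2 (0.852), which encodes a lipid droplet protein, Zfp955b (0.843), Atp6v0c (0.833), a subunit of the vacuolar proton pump, Cx3cl1 (0.83), the fractalkine gene, Trim15 (0.822) and the kinase gene Pak1 (0.813) followed. Each of these genes had its highest value in DPP4-1, DPP4-3 or GFP-3, which hold 3 of the 4 highest values of Actb. The exons of A730081D07Rik and Gcnt2 were not compared for overlap here, but the genes overlap, and without strand their reads cannot be told apart where exons do.

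Genes related to Dpp4 by family, by cleavage after proline or by name only were tested in the same fits. Of 10 such genes, 0 were called in any comparison of baits or on the slope. Over all genes tested, edgeR called 0% between baits and 4.37% on the slope. Fap, the closest relative, which also lies on chromosome 2, did not exceed 1.27 normalized CPM in the DPP4, GFP and ACTB libraries. The cytosolic peptidase genes Dpp8 and Dpp9 ranged from 18.6 to 143.7 and from 9.50 to 46.0. Prep, prolyl endopeptidase, ranged from 52.1 to 152.2, Dpp3 from 43.1 to 148.7, Prepl from 20.5 to 252.9, the lysosomal Dpp7 from 0.993 to 41.0 and Prcp from 0.290 to 43.8. Dpp6 and Dpp10, whose proteins lack peptidase activity, reached 70.2 and 3.27. Prepl had the smallest p in the comparison of DPP4 with ACTB (log2 difference 1.39, SE 0.615, adjusted p = 0.806 from edgeR).

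Of 21 genes of DPP4 partners, substrates and their receptors, 11 stayed under 1 normalized CPM in all 12 libraries, among them the receptors Glp1r, Glp2r, Npy1r, Cxcr3 and Cxcr4 and the ligands Npy, Vip, Cxcl11, Cxcl12 and Ccl11, as well as Ptprc. Ada, the adenosine deaminase that human DPP4 binds, was at 0.0645 to 33.1 in the 12 libraries and at 292.8 and 126.8 in MITO-1 and MITO-1c. The incretin genes Gip and Gcg and the tachykinin gene Tac1 were highest in GFP-2, at 391.0, 261.3 and 116.3. In DPP4-4 all 3 were at 0, and in GFP-1 they did not exceed 0.0869. Pyy, another hormone gene whose product DPP4 cleaves, was at 3.44, 5.31 and 5.59 in ACTB-1, ACTB-3 and ACTB-4 and at 0.352 or less in the other 9 libraries. None was called between baits, where 0% of all genes were. In ACTB against GFP Pyy had the smallest p of the list (log2 difference 8.20, SE 2.44, adjusted p = 0.814 from edgeR). On the enterocyte score 2 were called, both lower, beside 2.01% of all genes called lower. They were the caveolin gene Cav1 (-1.32, SE 0.283, adjusted p = 0.00606 from edgeR) and Cxcr4 (-1.09, SE 0.286, adjusted p = 0.0371), the latter at 0.579 normalized CPM or less. The remaining genes of the list had low or scattered values, Fn1 up to 263.7 in ACTB-4, Gipr up to 7.88 in DPP4-3, Cxcl10 up to 12.25 and Ccl5 up to 7.63, both in ACTB-3.

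Of 6 other actin genes, 0 were called in any comparison of baits or on the slope, beside 0% and 4.37% of all genes. Actg1, the other cytoplasmic actin, was at 156.9, 284.1, 481.4 and 234.2 normalized CPM in ACTB-1 to ACTB-4, at 360.5, 354.4, 62.7 and 167.9 in DPP4, and at 113.3, 158.1, 304.7 and 162.0 in GFP. The groups overlapped, with a log2 difference of 0.67 between ACTB and GFP (SE 0.443, adjusted p = 0.94 from edgeR). The level of Actg1 is uncertain too, as 57.1% of the 31-base stretches of the longest Actg1 transcript occur in another gene. Acta1, the skeletal muscle actin, ranged from 0.352 in DPP4-4 to 307.1 in GFP-2, with a log2 difference of -5.37 between ACTB and GFP (SE 1.75, adjusted p = 0.814). Actc1 reached 1.51, and Acta2, Actg2 and Actbl2 stayed under 1 in all 12 libraries.

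Genes that act on actin were examined beside Actb in the ACTB libraries. In ACTB against GFP edgeR called 0 of them and 0% of all genes. At an unadjusted p under 0.05 were 2 of 17 monomer genes, 3 of 25 serum response factor genes, 1 of 8 Arp2/3 genes and 0 of 14 microvillus core genes. Over all genes, 1486 of 26470 had such a p, so these small counts are not read as a result. Of 17 genes of actin monomer binding and turnover, 14 had a log2 difference above 0 (median 0.34, beside 0.11 over all 26470 genes). Tmsb4x, which encodes the monomer-binding thymosin beta 4, had the smallest p (1.89, SE 0.386, adjusted p = 0.814), followed by Cfl1 (0.82, SE 0.376) and Gsn (0.77, SE 0.427), which sever filaments. The 25 serum response factor genes are targets of that factor together with Srf itself and its coactivator genes Mrtfa and Mrtfb. Of the 25, 19 were above 0 (median 0.34), with Tagln2 at 1.92 (SE 0.456, adjusted p = 0.814), Zyx at 0.88 and Thbs1 at 4.03. Of 8 genes of the Arp2/3 complex, which nucleates branched filaments, 3 were above 0 (median -0.07), and of 14 genes of the microvillus actin core 2 were (median -0.76). In DPP4 against ACTB, which shares the ACTB libraries, 6 of 17 monomer genes (median -0.38) and 6 of 25 serum response factor genes (median -0.41) were above 0. So were 1 of 8 Arp2/3 genes (median -0.37) and 13 of 14 core genes (median 0.61), beside a median of 0.05 over all genes. On the enterocyte score, 4 of the 25 serum response factor genes were called lower, including Ccn2 (-1.75), Flna (-0.57) and Cnn2 (-0.42), beside 2.01% of all genes. Of the monomer and Arp2/3 genes 0 were called.

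Markers of other epithelial states are given beside the low Dpp4 of the ACTB libraries. In each comparison of baits, 0 genes of the fetal and Paneth lists and 0% of all genes were called by edgeR. In ACTB against GFP 1 of 9 fetal and 1 of 8 Paneth genes had an unadjusted p under 0.05, beside 1486 of all 26470 genes. Of 9 genes of fetal or regenerative epithelium, all had counts and 5 reached 1 normalized CPM in every one of the 12 libraries. Their summed level was 739.7 to 8282 in DPP4, 768.1 to 11470 in GFP and 3167 to 34360 in ACTB. It was 10740, 29620 and 34360 in ACTB-1, ACTB-3 and ACTB-4, 3167 in ACTB-2, 8282 in DPP4-4 and 11470 in GFP-1, so GFP-1 was above ACTB-1. On the enterocyte score 2 of the 9 were called lower, Anxa3 (-0.40) and Msln (-0.88), beside 2.01% of all genes. The summed level of 8 Paneth cell genes was 497.8 to 1559 in DPP4, 307.2 to 1035 in GFP and 61.2 to 528.9 in ACTB, where ACTB-2 was the highest and the other 3 were at 94.4 or less. Itln1 and Mmp7 made up most of the sum in DPP4-4, at 801.4 and 749.3. The defensin gene Defa24 had another order, at 0.117 in DPP4-4, 0.405 in GFP-1 and 6.79, 16.0 and 0 in ACTB-1, ACTB-3 and ACTB-4. Mptx2 was the 1 Paneth gene under 1 in all 12 libraries. Of the other lineages, 5 of 8 goblet cell genes, 2 of 8 enteroendocrine genes and 0 of 6 tuft cell genes were called higher with the score. Over all genes, 2.36% were called higher. The median slope was 0.78 for the goblet list and 0.98 for the enteroendocrine list, so the score is not particular to enterocytes. The part of these cell types in the level of Dpp4 was not tested. Cells of the mesenchyme and of the immune system can also carry DPP4. Of 8 mesenchymal genes 7 were under 1 normalized CPM in all 12 libraries, and the sum did not exceed 1.986. Of 8 immune and endothelial genes 4 were under 1 in all 12, among them Ptprc, Cd3e and Lyz2. Csf1r, a receptor gene of macrophages, was at 6.65 to 67.7 in the 12 libraries, highest in DPP4-1, where Dpp4 was also highest. Pecam1 and Kdr reached 2.515 in DPP4-3 and 6.57 in ACTB-4, and the sum of the list was 11.25 to 68.0 in DPP4, 7.94 to 15.1 in GFP and 8.38 to 27.9 in ACTB.

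In the MITO libraries Dpp4 had 173 counts in MITO-1 and 131 in MITO-1c, a ratio of CPM of 1.35 (95% exact binomial interval 1.07 to 1.71, counting error only), and a ratio of 1.54 with TMM scaling. Actb had 35311 and 17983 counts, a ratio of 2.01 (1.98 to 2.05). With 1 library each, these values compare the libraries and have no replicate check. The labels do not say which library received hydrogen peroxide, and the part of labelling in these ratios was not tested. On the score computed over 14 libraries MITO-1 was at 1.10 and MITO-1c at 0.75, above the DPP4-4, GFP-1 and 3 ACTB libraries, yet their Dpp4 lay below that of DPP4-4 and GFP-1.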

How the data were processed

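RNA recovered on streptavidin from sIOs with an APEX2 bait was measured in 14 mouse libraries made with the Nextera XT kit. The deposited values are raw read counts per gene. The authors trimmed reads with cutadapt 4.0, checked them with FastQC 0.11.9, aligned them to GRCm38 with STAR 2.7.9a and counted genes with HTSeq 1.99.2 in its default mode, with the strand setting not given in the sources used here. Their later steps (removal of libraries, batch correction by preparation date, normalization) are not in these counts, and neither the dates nor the libraries removed are given in the sources used here, so no batch term was fitted. Of 55401 gene IDs, 54349 matched the GENCODE vM21 annotation by versioned ID, 792 without the version and 260 had no name.

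Groups were taken from the labels. Genes with at least 5 counts over the libraries of a fit were tested with edgeR 4.0.16 in R 4.3.3 (TMM scaling, robust quasi-likelihood test, Benjamini-Hochberg adjustment over all genes tested), on the libraries of the baits compared. Called genes had an adjusted p under 0.05 and a log2 difference beyond 1 in either direction, whereas the slope on the enterocyte score, fitted over 12 libraries with bait as a term, was called by the adjusted p alone. DESeq2 1.42.0, other scalings and filters, a replicate block, the score as a covariate and leaving out each library were alternatives. Exact permutation tests of 4 against 4 libraries ran over 70 arrangements, and those with fewer libraries over all of theirs. Correlations over 10 or more libraries used 100000 resamples. The fitting code was tested on simulated data. Log2 CPM had a prior count of 2, and the ratio to Actb an added count of 0.5. Named genes were Dpp4 and Actb, the DPP4 family, DPP4 partners, actin isoforms and reference genes, up to 3 genes with the smallest p of each other list, the 8 genes most like each bait gene by Pearson's r among genes that averaged at least 10 CPM, and Lct, Sis, Alpi, Fabp1, Apoa1, Lgr5 and Mki67. Some genes that this rule names are not reported here. Genes named outside it were chosen after their values were seen. The members and the 19 gene lists were chosen with earlier results of these data known.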

Additional observations from a re-analysis of the deposited data

Results flagged for a closer look

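In 8 of 36 sets of 4 libraries checked, 1 library lay far from the other 3, with a gap to the nearest value that took more of the whole range than Dixon's 95% critical value. Chance flags about 1 in 20 such groups, and the sets are not independent. ACTB-2 was the high library for Dpp4 (0.9995 of the range), for Gm13561 (0.998) and for the log2 ratio of Dpp4 to Actb (0.9407) among the ACTB libraries. GFP-2 was the high library for the same ratio among the GFP libraries (0.9648), with 80.3 Dpp4 counts per 1000 Actb counts beside 36.5 to 37.5 in the other 3. GFP-4 was the high library for the Y-linked genes Ddx3y (0.9787), Eif2s3y (0.9971) and Uty (0.9951). For Xist, 1 of the DPP4 libraries stood apart from the other 3 (0.8626).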

How the results depend on the processing

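Dpp4 in DPP4 against GFP and Actb in ACTB against GFP or both baits kept their direction and were called in no alternative. ACTB-2 set the other Dpp4 values. Leaving out each library gave 1.065 to 8.51 for DPP4 against ACTB and 0.54 to 4.56 for DPP4 against both baits, the highest in each case without ACTB-2. With a replicate block the first was 7.01, and with the score as a covariate and without ACTB-2 it was 7.26, both called. Whether replicate numbers pair the libraries is not stated. Same-numbered libraries had correlations of -0.677 to 0.517 and differently numbered ones of -0.629 to 0.761, a like range that cannot decide it. The 2 shallow libraries, DPP4-4 and GFP-4, share a number. Actb in ACTB against DPP4 turned to 0.33 with library totals, 0.042 with the block, 0.016 with the score as a covariate and 0.23 with the score and without ACTB-2, and lay between -0.165 and 0.305 over libraries left out. The slope of Dpp4 was called with filterByExpr (0.73) and DESeq2 (0.73). Its correlation with the score was 0.578 without the 2 farthest libraries, and that of Actb was -0.005 with library totals. Genes called in DPP4 against GFP were 6 with no filter and 48 with DESeq2. In DPP4 against ACTB they were 60 with no filter, 142 with DESeq2, 166 with the block, 4 with the score, 57 with the score and without ACTB-2, and 0 to 56 over libraries left out. In ACTB against GFP they were 73 with DESeq2, 4 with the score and without ACTB-2, and 0 to 10 over libraries left out. Against both baits they were 36 with DESeq2 and 0 to 4 over libraries left out for DPP4, and for ACTB 4 with no filter, 109 with DESeq2, 1 without the 2 shallow libraries and 0 to 25 over libraries left out. On the slope 3698 genes were called with DESeq2, 316 with the block, 815 without the shallow libraries, 442 without the ACTB libraries and 434 to 1503 over libraries left out. The cause of these shifts was not tested.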
